A study of Mus musculus with 12 samples.

Results

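The genes described here encode the proteins of the cytosolic ribosome, measured in spleen cells of mice around cryo-thermal therapy (CTT), a treatment that freezes and then heats a tumor. Members were all genes in the count tables whose symbol begins with Rpl or Rps and a digit, together with Rpsa, Rplp0, Rplp1 and Rplp2. Symbols beginning with Rps6k and pseudogene symbols were left out. This gave 89 genes of 16805 in the neutrophil table and the same 89 of 16954 in the monocyte table. Of these, 77 are canonical ribosomal protein genes, 46 of the large (60S) subunit and 31 of the small (40S) subunit. The other 12 are paralogs, retrogenes and genes with a similar symbol, described separately below. Fau and Rack1 also encode proteins of the ribosome but have other symbols and are given as companions.

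All 12 libraries came from the spleens of mice labelled wild type. There were 4 groups of 3 biological replicates. Control neutrophils came from tumor-bearing mice without CTT, and CTT neutrophils were taken 12 h after CTT. Both were pulled out of the spleen with a PE-coupled anti-Ly6G antibody and magnetic positive selection. Monocytes were taken 5 days after CTT, either after CTT alone or after CTT with anti-Ly6G treatment, an antibody used to deplete neutrophils, and were pulled out by the same method with anti-CCR2. No monocyte library came from mice without CTT, so the monocyte comparison is about the antibody in treated mice. The labels used here name neither the tumor line, nor the antibody's dose, nor how pure the selected cells were. They also leave unsaid whether a library stands for 1 mouse or a pool. A p-value here therefore sets a group difference against the spread between these libraries, which may be partly technical.

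Each ribosome carries 1 copy of nearly every ribosomal protein beside its ribosomal RNA. The genes are transcribed at high and closely matched rates in most cells, and their mRNAs belong to the most abundant of a cell. These mRNAs begin with a C followed by a run of pyrimidines, the terminal oligopyrimidine (TOP) motif. Through that motif mTORC1 and the RNA-binding protein LARP1 switch their translation on and off without a need for a change in mRNA amount. mRNA counts therefore do not show how much ribosomal protein was made. Neutrophils are short-lived cells that make much of their protein content before they leave the bone marrow, while monocytes remain able to differentiate.

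Library totals ran from 30942849 to 34935547 counts in neutrophils and from 31865982 to 35956571 in monocytes, and no canonical member had fewer than 5242 counts in any library. Counting error was therefore small for these genes, and the spread between libraries set the precision. Over all tested genes the spread was wider in neutrophils, with a common biological coefficient of variation of 0.275 against 0.114 in monocytes. The median standard error of a canonical member's log2 fold change was also larger, at 0.11 against 0.07. The joint level of these members was not more variable in neutrophils. The SD of their median between libraries was 0.049 there and 0.067 in monocytes. The selected cells were mixed. Neutrophil markers summed to 4148 to 6118 CPM (read counts scaled to library size) in control and 7736 to 12870 CPM in CTT neutrophil libraries, beside 3333 to 8277 CPM of B cell markers over both groups. Ly6g, the selection antigen, was at 9.52 to 14.7 CPM in control neutrophil libraries, where CTT monocyte libraries had 11.7 to 16.1 CPM. Control replicate 1 of the neutrophils stood apart, with 15569 CPM of erythroid markers against 453 to 2652 CPM in the other 5 libraries and 5826 CPM of cell cycle genes against 1088 to 1596 CPM. In monocytes, anti-Ly6G libraries had 13471 to 18188 CPM of neutrophil markers against 4866 to 6699 CPM after CTT alone, and 13 of 14 of these markers rose. Cell cycle genes were at 2043 to 2334 CPM against 1634 to 1862 CPM, and 9 of 16 rose. Of the monocyte markers 8 of 10 rose and 1 fell, with overlapping sums of 5106 to 6095 CPM against 3576 to 5723 CPM. The anti-Ly6G libraries also had less of the red pulp macrophage markers, at 7455 to 8104 CPM against 9281 to 15260 CPM. All 10 B cell markers were lower there (median log2 fold change −0.47), with overlapping sums of 3017 to 4169 CPM against 3891 to 5690 CPM. All 13 erythroid markers were lower too (median −0.52), at 888 to 1449 CPM against 1510 to 2383 CPM. In such bulk samples, fewer cells of a type and less RNA per cell cannot be told apart.

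The results below turn on Rps27l and its parent Rps27, both of which encode a zinc finger protein of the 40S subunit. Rps27l has been described as a target gene of the stress regulator p53. Rps27 lies on chromosome 3 (GRCm38.p6, 90212667 to 90213648, minus strand) and Rps27l on chromosome 9 (66944624 to 66949522, plus strand), and both are protein coding. Their coding sequences from GENCODE M21 transcripts are shown because the measured contrast between the genes depends on reads being assigned to the right one. Both were 255 bases long and differed at 61 positions, an identity of 76.1%. Capitals in the Rps27l line mark the bases that differ from Rps27.
Rps27: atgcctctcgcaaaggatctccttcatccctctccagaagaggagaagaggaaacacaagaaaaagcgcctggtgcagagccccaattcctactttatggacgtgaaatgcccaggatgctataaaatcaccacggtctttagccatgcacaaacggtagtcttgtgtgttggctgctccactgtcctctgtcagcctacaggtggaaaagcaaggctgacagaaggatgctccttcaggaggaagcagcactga
Rps27l: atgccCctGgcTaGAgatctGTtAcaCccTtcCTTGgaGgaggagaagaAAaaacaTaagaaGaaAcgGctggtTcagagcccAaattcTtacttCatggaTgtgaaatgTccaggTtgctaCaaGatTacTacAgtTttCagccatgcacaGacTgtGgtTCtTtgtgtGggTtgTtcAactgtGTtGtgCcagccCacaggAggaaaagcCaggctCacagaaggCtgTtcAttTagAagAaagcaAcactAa
The differences were spread along the whole length. None of the 50-base stretches of the Rps27l transcript occurred in Rps27, and 22.4% occurred in some other annotated transcript. Rps27 was at the opposite end, since 98.6% of its 50-base stretches occurred in other genes, the highest share of any canonical member. One of those genes is the retrogene Rps27rt on chromosome 9, whose coding sequence was identical to that of Rps27 (100%). Reads of Rps27 and Rps27rt can thus be split or lost between the copies. The same caution applies to the family as a whole, because the median canonical member shared 50.7% of its 50-base stretches with other genes. The length of 50 was a choice made here, and no source used here gives the read length.

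The first bases of the mRNA are shown for members that come up below, because the start carries the TOP motif. Each line gives 20 bases before and 20 bases from the annotated start, from RefSeq promoter windows on GRCm38.p6, with coordinates on the plus strand and letters on the strand of the gene. Capitals mark the pyrimidine run that begins at the first transcribed base.
Rps27, chr3:90213629-90213668, minus strand: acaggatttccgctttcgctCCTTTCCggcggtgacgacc
Rps6, chr4:86857348-86857387, minus strand: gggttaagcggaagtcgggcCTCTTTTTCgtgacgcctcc
Rps21, chr2:180257359-180257398, plus strand: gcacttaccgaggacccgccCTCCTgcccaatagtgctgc
Rps27l, chr9:66946066-66946105, plus strand: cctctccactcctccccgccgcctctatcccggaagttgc
Rpl22l1, chr3:28805488-28805527, plus strand: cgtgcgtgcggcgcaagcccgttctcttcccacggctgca
Rpl7l1, chr17:46782637-46782676, minus strand: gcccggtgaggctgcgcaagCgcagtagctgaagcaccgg
At the starts shown, Rps27, Rps6 and Rps21 began with C and a pyrimidine run. Those of the paralogs Rps27l, Rpl22l1 and Rpl7l1 had no run or a single C. These examples do not part canonical members from the others. The retrogene Rps27rt and Rpl32l, outside the canonical set, also began with C and a run. The canonical Rps26, Rpl11 and Rps2 had no such run, nor did another annotated start of Rps21. RefSeq windows were given for 57 canonical members. A C followed by at least 4 pyrimidines stood at an annotated start of 13 of these genes (22.8%), against 3.01% of all 27025 genes in the table. With GENCODE M21 starts the count was 11 of 77 (14.3%) against 2.12% of 21894 genes. Annotated starts can lie several bases away from those used in a cell, and in the Rpl27a and Rps24 windows, for instance, a T opens the run. In the whole 300-base windows (250 before and 50 after the start), searched on both strands, CCGGAAG, a core of the site bound by ETS factors such as GABPA, occurred in 42.1% of member genes and 9.93% of all genes. TCTCGCG, part of a longer promoter element, occurred in 24.6% and 2.92%. GGGCGG, which SP1 binds, occurred in 61.4% and 38.2%, and AAGATGG, the core bound by YY1, in 15.8% and 7.28%. The E-box CACGTG of MYC and MAX occurred in 10.5% against 8.09%, and the TATA box letters TATAAA in 10.5% against 15.7%. None of these matches shows that a factor was bound.

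The 89 members together took about the same share of reads in control and CTT neutrophils. In control neutrophils they made up 7.17%, 6.90% and 6.83% of counted reads, and 12 h after CTT 6.59%, 6.91% and 6.42%. The groups overlapped, since CTT replicate 2 lay above control replicates 2 and 3. As a share of summed FPKM (counts per length and library total), they did not overlap. Control neutrophils were at 19.3%, 19.4% and 19.4%, and CTT neutrophils at 19.0%, 19.0% and 17.6%. In monocytes the shares of reads were 5.21%, 5.66% and 5.96% after CTT alone and 5.11%, 5.06% and 5.50% with anti-Ly6G, with overlap. Their FPKM shares overlapped too, at 15.6%, 17.1% and 17.8% and then at 14.6%, 14.6% and 15.9%. Every neutrophil library was above every monocyte library by share of reads, but not by FPKM share. The tables were normalized separately and no test was made. The 60S members took 1.34 to 1.42 reads for each read of the 40S members in neutrophils and 1.29 to 1.30 in monocytes, the highest value being that of control replicate 1. The ratio of the subunits was nearly constant within a cell type.

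**Figure D1:**
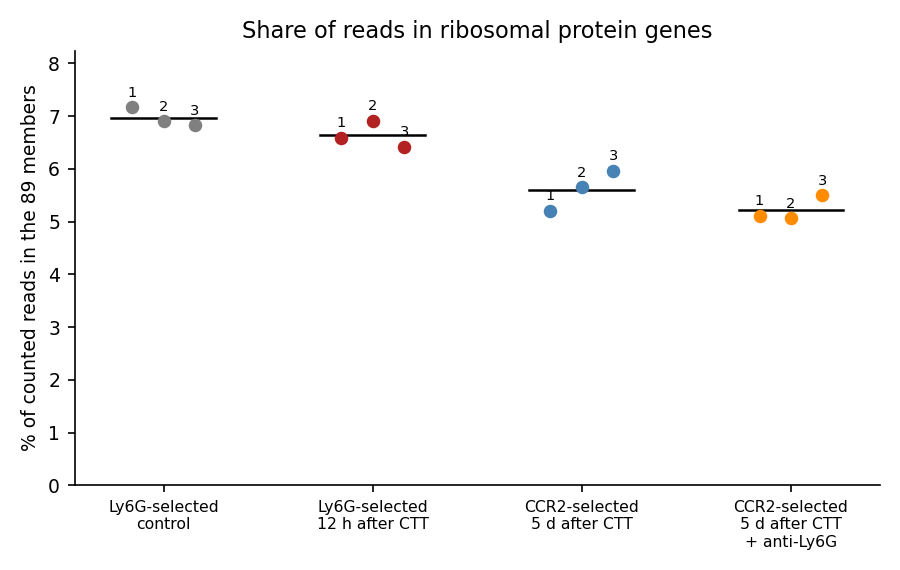
Percent of counted reads that fell in the 89 ribosomal protein genes (vertical axis, from 0) in each library, by group (horizontal axis). Points are libraries numbered by replicate and bars are group means of 3. Shares run from 6.42% to 7.17% in Ly6G-selected and from 5.06% to 5.96% in CCR2-selected libraries, and the groups of each cell type overlap.

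In neutrophils 12 h after CTT, no ribosomal protein gene passed the test in either direction. Of 87 members tested, 0 rose and 0 fell by the quasi-likelihood F test of edgeR, with p-values adjusted by Benjamini-Hochberg over the 13058 genes tested, where 74 genes (0.567%) rose and 0% fell. That background itself was unstable, with 257 genes that rose and 31 that fell without control replicate 1 and 0 called without any 1 other library. At an unadjusted p below the 0.05 threshold, 0 members were higher and 1, Rpl7l1, was lower, against 14% of all genes. DESeq2 likewise called 0 members in each direction, where it called 455 genes higher and 107 lower. The remaining members, Rpl39l and Rps23rg1, were too low to test, with at most 17 counts in a library. The median log2 fold change of the 87 members was −0.04, beside −0.02 for all tested genes. Among the 77 canonical members it was −0.03, with 47 negative, and the values ran from −0.27 to 0.24. The median standard error of a canonical member was 0.11. Without control replicate 1, the canonical median was 0.01 and 33 of 77 were negative, so the direction of the small shift rested on that library.

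Values of the canonical members lay near 0 compared with other genes of similar abundance. A canonical member's absolute log2 fold change had a median of 0.08, and 96.1% were under 0.25. Of the 1089 other genes within the same range of mean CPM, 61.4% were under 0.25, the median was 0.19 and 1.1% were called. In monocytes the canonical median was 0.07 with 100% under 0.25, against 0.16, 69.1% and 28.1% called among 951 other genes. These are descriptions of the list beside its surroundings, with no test of the difference.

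Of the 4 largest positive values in neutrophils among members at 10 CPM or more, 3 belonged to proteins of the 40S subunit. Rps6, the protein phosphorylated by S6 kinase downstream of mTORC1, was at 1589, 1521 and 1635 CPM in control and 1797, 1860 and 1879 CPM after CTT. All 3 CTT libraries were above all controls, yet the log2 fold change was 0.22 (SE 0.11, edgeR adjusted p = 0.379). Rps24, which is needed to process the precursor of 18S ribosomal RNA, was at 1468, 1795 and 1860 CPM in control and 1960, 2174 and 1903 CPM after CTT (0.24, SE 0.14, edgeR adjusted p = 0.428). Rps26, which lines the mRNA exit channel, was at 947, 774 and 924 CPM and then at 1036, 1034 and 1001 CPM (0.22, SE 0.12, edgeR adjusted p = 0.421). For these 3 genes the groups did not overlap. Leaving out 1 library lowered Rps24 to 0.14 (without control replicate 1) and Rps26 to 0.13 (without control replicate 2). Rpl30, a 60S protein, was at 528, 528 and 565 CPM in control and 561, 686 and 624 CPM after CTT, a difference of 0.21 with overlap (SE 0.12, edgeR adjusted p = 0.429).

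The largest negative values also included canonical 40S genes. Rps2, a protein at the mRNA entry channel, was at 1963, 1224 and 1201 CPM in control and 1230, 1189 and 1209 CPM after CTT (−0.27, SE 0.21, edgeR adjusted p = 0.523). Control replicate 1 alone was high, and without it the value was 0.00. Rps29, a small zinc-binding protein of the 40S head, was at 419, 407 and 369 CPM and then at 312, 362 and 320 CPM (−0.27, SE 0.12, edgeR adjusted p = 0.364), with no overlap. Rps14 was at −0.27 (edgeR adjusted p = 0.395) and Rps21 at −0.21 (edgeR adjusted p = 0.399). In all, 8 members were higher and 12 lower in every CTT library than in every control, which is 20 of 87 beside 24.7% of all tested genes. Rpl4, Rpl12, Rpl19, Rpl23 and Rpsa were among those higher throughout, and Rpl7a, Rpl8, Rpl13, Rpl15, Rpl36, Rpl37a, Rpl39, Rps19, Rps21 and Rpl7l1 among those lower throughout.

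No gene of the structural groups passed in neutrophils. Of the P stalk genes Rplp0, Rplp1, Rplp2 and Rpl12, whose proteins recruit and activate elongation factors, 0 of 4 passed, with a median of −0.11. Of 9 genes around the exit tunnel, through which the new chain leaves, 0 passed, with a median of 0.03. Of 14 genes of the 40S head, 0 passed, with a median of −0.06 and 12 negative. Rpl5 and Rpl11, which bind 5S ribosomal RNA and can inhibit MDM2 when free of the ribosome, were at 0.04 (edgeR adjusted p = 0.871) and −0.06 (edgeR adjusted p = 0.795). Of 9 genes mutated in Diamond-Blackfan anemia, a failure of red cell production, 0 passed, with a median of 0.04. The most uneven canonical gene in the plot of log2 levels by library, beside Rps2, was Rps27a, which encodes ubiquitin fused to a 40S protein. It was at 338, 395 and 274 CPM in control and 336, 462 and 310 CPM after CTT, so its spread was within both groups. It is named here after its values were seen.

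**Figure D2:**
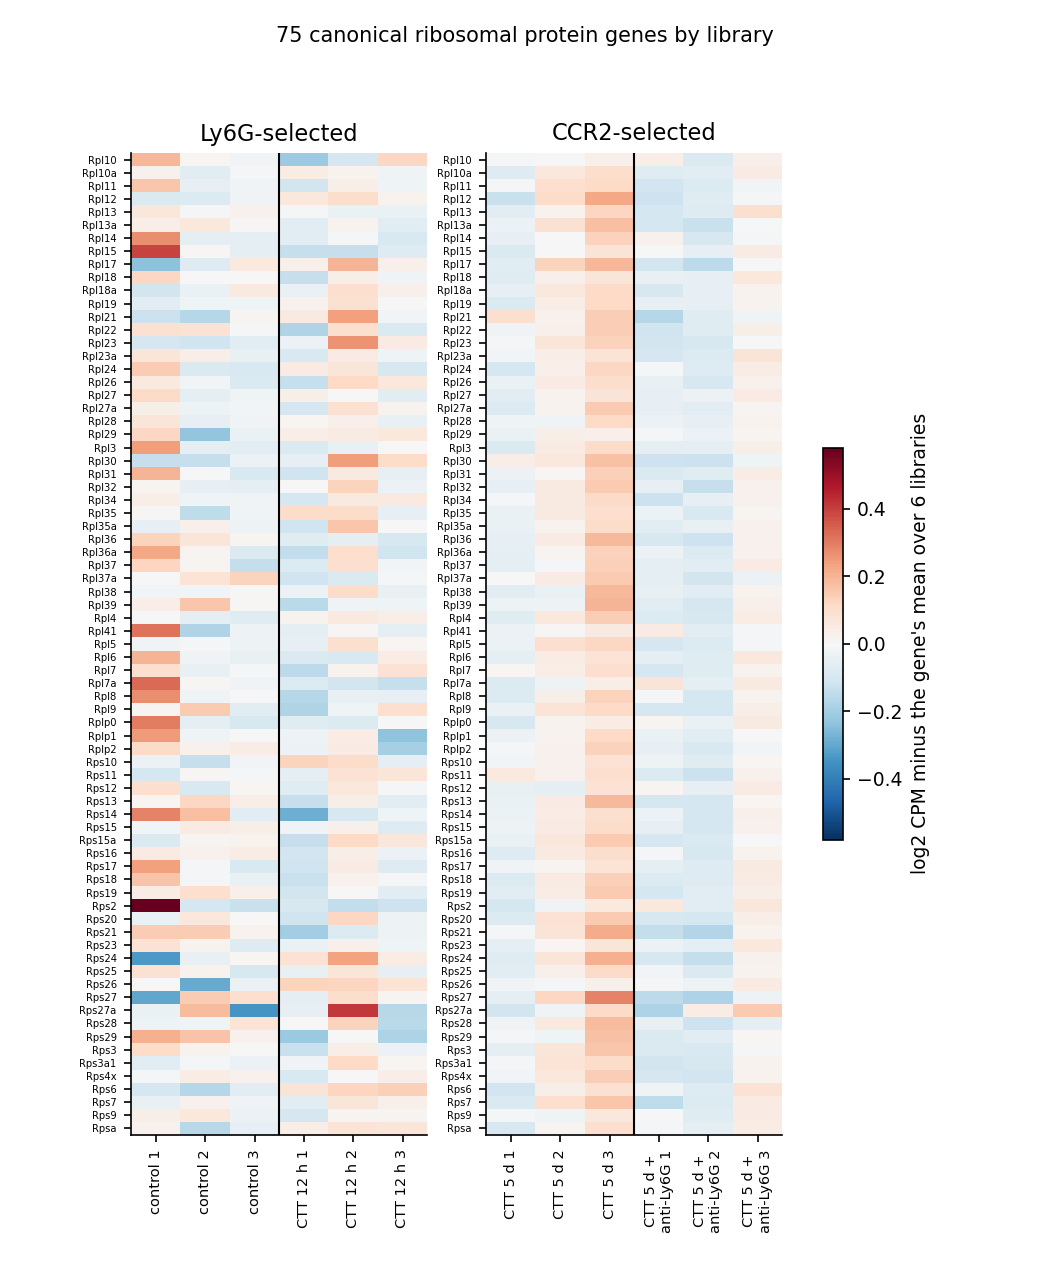
log2 CPM of 75 canonical genes (rows) minus that gene's mean over the 6 libraries of its cell type, by library (columns). Red is above and blue below the mean, on 1 scale for both panels, and the black line parts the groups. Control replicate 1 is the highest library for 34 of the 75 genes drawn on the left, and CTT replicate 3 for 68 on the right.

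Single libraries often held the extremes. Control replicate 1 was the highest of the 6 neutrophil libraries in 36 of the 77 canonical members, and CTT replicate 2 in 25. CTT replicate 1 was the lowest in 35. Control replicate 1 is the library with the high erythroid and cell cycle markers given above. Its part in the member values was not tested beyond leaving the library out.

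In monocytes of anti-Ly6G-treated mice, 1 member rose and none fell. The member that rose was Rps27l. Over all 13294 tested genes, 1354 (10.2%) rose and 681 (5.12%) fell by the same edgeR test, so 1 of 87 members is a smaller share than that of all genes. With upper quartile scaling 1069 genes rose and 1030 fell, and of the members 0 rose and 2 fell (Rpl21 and Rpl30). At an unadjusted p below the 0.05 threshold, 2 members were higher (Rps27l and Rpl7l1) and 5 lower (Rps27, Rpl30, Rpl21, Rps21 and Rpl11), against 31% of all genes. By DESeq2, Rpl21, Rpl30 and Rps27 fell and Rps27l rose. The median log2 fold change of the 87 members was −0.07, with −0.00 for all tested genes. Among the canonical members 70 of 77 were negative and the values ran from −0.24 to 0.05, with a median standard error of 0.07. The values below 0 were thus shared by nearly all canonical members, and each was small.

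Rps27l was at 35.2, 36.3 and 34.3 CPM after CTT alone and at 55.6, 43.5 and 41.2 CPM with anti-Ly6G. All 3 antibody libraries were above all 3 others, and replicate 1 was the highest. The log2 fold change was 0.41 (SE 0.11, edgeR adjusted p = 0.0399). The call was near the threshold. It was lost without CTT replicate 2 (edgeR adjusted p = 0.0824), CTT replicate 3 (0.136), anti-Ly6G replicate 1 (0.0842, log2 fold change 0.26) or anti-Ly6G replicate 2 (0.0661). Upper quartile scaling also lost it (0.0549), as did limma on log2 FPKM (counts per length and library total) plus 1 or 0.1. DESeq2 (adjusted p = 0.015) and limma-voom kept it.

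The parent gene went the other way without passing. Rps27 was at 564, 634 and 713 CPM after CTT alone and at 525, 516 and 573 CPM with anti-Ly6G (−0.24, SE 0.09, edgeR adjusted p = 0.0996), the lowest canonical value. The groups overlapped because CTT replicate 1 was below anti-Ly6G replicate 3. Its retrogene copy Rps27rt was at −0.26 (edgeR adjusted p = 0.163). Rpl30 was at 434, 440 and 475 CPM and then at 388, 387 and 415 CPM (−0.18, SE 0.06, edgeR adjusted p = 0.0832). Rpl21 was at 211, 202 and 219 CPM and then at 177, 189 and 195 CPM (−0.17, SE 0.06, edgeR adjusted p = 0.0995). For both of these the groups did not overlap. Rps21 was at 331, 349 and 386 CPM and then at 302, 295 and 337 CPM (−0.19, SE 0.08, edgeR adjusted p = 0.135). Of the canonical genes the highest value was that of Rpl7a, at 0.05 (edgeR adjusted p = 0.657).

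Both genes of the 5S particle leaned down in monocytes. Rpl11 was at 590, 633 and 642 CPM and then at 548, 560 and 585 CPM, with no overlap (−0.14, SE 0.06, edgeR adjusted p = 0.152). Rpl5 was at 907, 993 and 1009 CPM and then at 867, 878 and 925 CPM (−0.12, SE 0.06, edgeR adjusted p = 0.224). The groups fixed by structure had like medians, at −0.09 for the P stalk, −0.08 for the exit tunnel and −0.07 for the 40S head, each with 0 genes called. In all, 1 member was higher and 7 were lower without overlap (Rpl11, Rpl21, Rpl30, Rpl37a, Rplp2, Rps28 and Rpl32l), which is 8 of 87 against 36% of all tested genes.

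The extremes again fell in few libraries. CTT replicate 3 was the highest library in 70 of 77 canonical members, while anti-Ly6G replicate 2 was the lowest in 40, anti-Ly6G replicate 1 in 20 and CTT replicate 1 in 16. Without CTT replicate 3 the canonical median was −0.04 with 59 of 77 negative. Without CTT replicate 1 it was −0.11, and 8 members fell (Rpl11, Rpl12, Rpl13a, Rpl17, Rpl30, Rps21, Rps27 and Rps27rt). The 2 libraries at the ends of the CTT group also differed in cell markers: CTT replicate 1 had 15260 CPM of red pulp macrophage and 3891 CPM of B cell markers, and CTT replicate 3 had 10710 and 5566 CPM. The part of these markers in the member values was not tested.

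**Figure D3:**
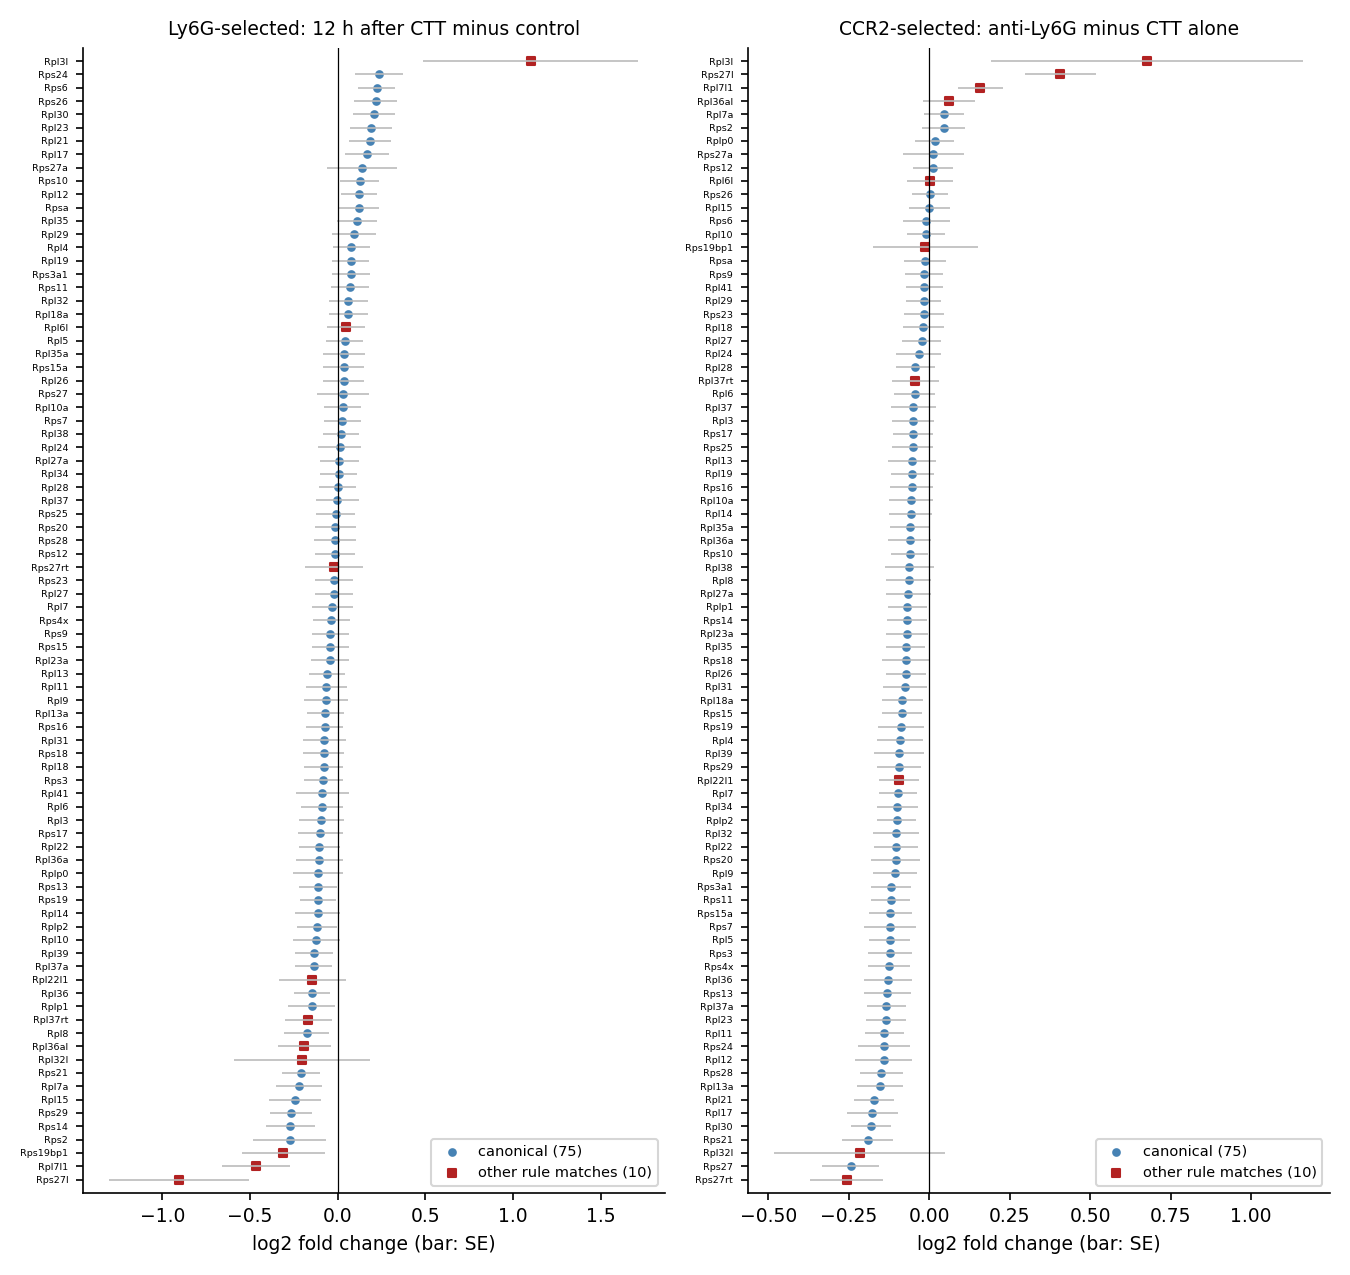
log2 fold change (horizontal axis) of 85 tested members (rows), ordered by value, in both comparisons. Blue circles are 75 canonical genes, red squares the 10 other tested members, and bars are 1 standard error. Canonical values run from −0.27 to 0.24 on the left and from −0.24 to 0.05 on the right, and the outermost points are mostly paralogs.

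Beyond the canonical range lay mainly paralogs. In neutrophils Rps27l was at 72.9, 32.0 and 23.4 CPM in control and 21.6, 25.0 and 22.0 CPM after CTT, a log2 fold change of −0.90 that did not pass (SE 0.40, edgeR adjusted p = 0.361). Control replicate 1 was more than any other library, and without it the value was −0.27 (edgeR adjusted p = 0.456). Rpl7l1, a relative of Rpl7 found in nucleolar ribosome precursors, was at 120, 85.8 and 71.9 CPM in control and 70.5, 63.1 and 67.7 CPM after CTT (−0.46, SE 0.19, edgeR adjusted p = 0.354). Without control replicate 1 it was −0.23 (edgeR adjusted p = 0.333). In monocytes Rpl7l1 was at 80.3, 74.3 and 84.4 CPM and then at 83.9, 90.1 and 92.8 CPM (0.16, SE 0.07, edgeR adjusted p = 0.159).

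Set against its parent within each library, Rps27l took a larger share with anti-Ly6G in monocytes, a ratio that was not tested. For every 1000 reads of Rps27 there were 62.5, 57.2 and 48.1 reads of Rps27l in monocytes after CTT alone and 106.0, 84.3 and 72.0 with anti-Ly6G, with no overlap. In neutrophils there were 145, 46.6 and 35.2 in control and 36.2, 37.5 and 35.0 after CTT, and apart from control replicates 1 and 2 all these libraries lay between 35.0 and 37.5. Such ratios do not depend on the scaling between libraries, but reads of Rps27 shared with its copies count in them. A larger ratio was not particular to Rps27l. Rpl7l1 gave 88.0, 79.9 and 87.1 reads for every 1000 of Rpl7 in monocytes after CTT alone. With anti-Ly6G it gave 99.2, 104 and 101, without overlap. Rpl36al gave 509 to 588 for every 1000 of Rpl36a and then 561 to 649, with overlap. Rpl22l1, which can stand in for Rpl22 in the ribosome, behaved differently from Rps27l and Rpl7l1. It gave 288, 305 and 281 reads for every 1000 of Rpl22 in CTT monocytes and 296, 295 and 288 with anti-Ly6G, against 102 to 145 in neutrophils. The ratio was thus higher in every monocyte than in every neutrophil library, which also differ in selection antibody and time, and overlapped between the groups of each cell type; no test was made. Its log2 fold change was −0.15 in neutrophils (edgeR adjusted p = 0.719) and −0.09 in monocytes (edgeR adjusted p = 0.355).

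**Figure D4:**
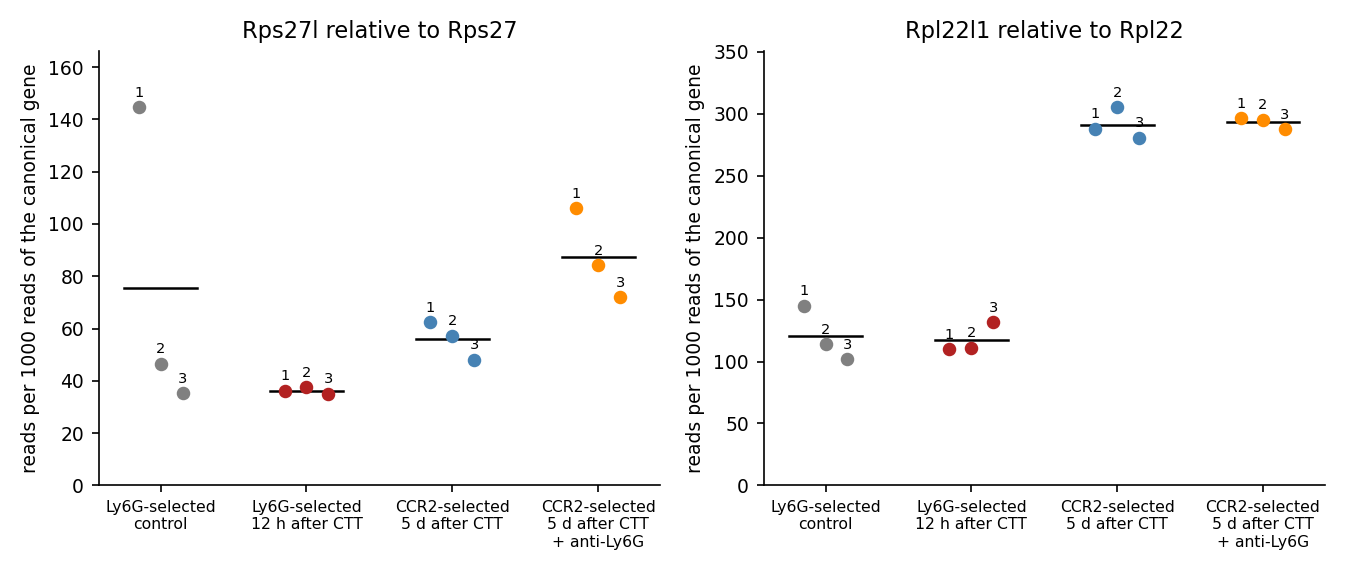
Reads of Rps27l for every 1000 reads of Rps27 (left) and of Rpl22l1 for every 1000 reads of Rpl22 (right) in each library, on vertical axes from 0. Points are libraries numbered by replicate and bars are group means of 3. The anti-Ly6G libraries lie at 72.0 to 106.0 on the left, above the CTT monocyte libraries at 48.1 to 62.5, and control replicate 1 of the neutrophils lies at 145.

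The other paralogs and symbol matches did not pass or were scarce. Rpl36al, whose coding sequence was 87.9% identical to that of Rpl36a, was at −0.19 in neutrophils (edgeR adjusted p = 0.546) and 0.06 in monocytes (edgeR adjusted p = 0.652). Rpl3l, the striated muscle form of Rpl3, had the largest positive values of all members, at 1.10 in neutrophils (SE 0.61, edgeR adjusted p = 0.417) and 0.68 in monocytes (SE 0.49, edgeR adjusted p = 0.388), but it had at most 48 counts in a library and its groups overlapped in both. Rpl39l, the form of Rpl39 known from the testis, ranged from 0 to 17 counts over the 12 libraries. Rps19bp1, which encodes a binding partner of Rps19 and not a ribosomal protein, was at −0.31 in neutrophils (edgeR adjusted p = 0.528) and −0.01 in monocytes (edgeR adjusted p = 0.968). A further 4 genes taken in by their symbols were recognised only when the tables were read: Rpl6l at 0.05 and 0.00, Rpl37rt at −0.17 and −0.04, Rpl32l at −0.20 and −0.22, and the untested Rps23rg1. None of these passed.

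Levels are compared between genes on the deposited FPKM scale, which divides by length. In neutrophils the highest canonical members by mean FPKM were Rpl41, the shortest ribosomal protein, at 2785, Rplp1 at 2151 and Rps26 at 2123. In monocytes they were Rplp1 at 2273, Rps9 at 1734 and Rps29 at 1701. Rpl22, Rps15a and Rpl21 were the lowest in both, at 121, 130 and 131 FPKM in neutrophils and 133, 110 and 107 FPKM in monocytes. The highest was 23.1 times the lowest in neutrophils and 21.2 times in monocytes. The length used matters for part of this order. For 6 canonical members the deposited length was over 2 times that of the GENCODE transcript, including Rps15a at 5136 against 640 bases, and across genes the FPKM of canonical members was lower at greater deposited length, with a Spearman rho of −0.42 in neutrophils and −0.59 in monocytes, over 77 genes that share libraries. With GENCODE lengths the ratio of highest to lowest was 18.6 and 19.9. Of the 3 lowest only Rpl21 then stayed at the bottom, since Rps15a had 1047 and Rpl22 596 CPM per kilobase in neutrophils, and Rps15, at 2434, was above Rpl41, at 2149. For Rpl21 both lengths were 1856 bases, so this alternative could not change its value. Rps20, with a GENCODE length of 3706 bases, was next lowest in neutrophils at 136 CPM per kilobase.

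The order of the canonical members was much alike in the 2 kinds of cell, with a Spearman rho of 0.86 between their mean FPKM over 77 genes. A gene's FPKM was divided by the same deposited length in both, which by itself makes the orders more alike. That part was not separated. Single members departed from the shared order. After CTT, 54 canonical members had lower and 23 higher mean CPM in monocytes than in neutrophils, with a median log2 ratio of −0.25. The extremes were Rps24, at 960 CPM in monocytes against 2012 CPM in neutrophils (−1.07), and Rps21, at 355 against 167 CPM (1.09). Rps29 was also higher in monocytes, at 685 against 331 CPM, and Rps26 lower, at 490 against 1024 CPM. These groups differ in cell type, selection antibody and time after CTT at once, which cannot be told apart, and the tables were normalized separately, so no test was made.

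The ribosomal proteins with other symbols had values within the canonical range. Fau, which encodes a ubiquitin-like protein fused to a 40S protein, was at −0.02 in neutrophils and −0.07 in monocytes, and Rack1, a scaffold on the 40S head, was at −0.15 and −0.13. Neither passed. Of 25 translation factors and other genes with TOP mRNAs, 0 changed in neutrophils (median −0.07). In monocytes 1 rose (median −0.05), where 10.2% of all tested genes rose. That gene was Vim, an intermediate filament protein of mesenchymal and myeloid cells, at 665, 494 and 584 CPM after CTT alone and above them all with anti-Ly6G (0.83, SE 0.11, edgeR adjusted p = 0.00218).

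Genes for building ribosomes had mostly negative values in neutrophils, and these rested on control replicate 1. Of 47 ribosome biogenesis genes, 0 passed in neutrophils, with 40 negative and a median of −0.25, and without control replicate 1 the median was 0.01 and Taf1d and Gnl3 rose. Their summed level was 5662 CPM in control replicate 1 and 3508 to 3933 CPM in the other 5 libraries. In monocytes 3 rose and 2 fell, again no larger a share than among all genes (10.2% rose and 5.12% fell). Bysl (0.33, edgeR adjusted p = 0.0262), a factor of 40S assembly, Nhp2 (0.29, edgeR adjusted p = 0.0211), of the particles that convert uridine to pseudouridine, and Eif6 (0.27), which keeps the subunits apart, rose. Wdr75 (−0.34, edgeR adjusted p = 0.0238), of the early 40S precursor, and Gnl3 (−0.34), a nucleolar GTPase, fell. Without anti-Ly6G replicate 1 or 3, 0 of these genes passed. Eif6 and Gnl3 are named after their values were seen, to complete the count. The call of Bysl was lost without CTT replicate 3 or any 1 anti-Ly6G library, that of Nhp2 without CTT replicate 2 or 3 or anti-Ly6G replicate 1 or 3, and that of Wdr75 without any 1 anti-Ly6G library.

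Mitochondrial ribosomal proteins, which serve a separate ribosome inside mitochondria, had values of the opposite sign to the cytosolic set in monocytes, a contrast that was not tested. Of 78 tested, 0 passed in neutrophils, with 76 negative and a median of −0.38. Without control replicate 1 the median was −0.11 with 61 negative, and the summed level was 3226 CPM in that library against 1835 to 2064 CPM in the other 5. In monocytes 4 rose and 0 fell, a smaller share than among all genes (10.2% rose and 5.12% fell), and 68 of 78 were positive with a median of 0.12, where 70 of 77 canonical cytosolic genes were negative. Mrpl33 was at 35.6, 31.0 and 34.0 CPM after CTT alone and 57.9, 56.9 and 55.8 CPM with anti-Ly6G, far apart (0.76, SE 0.07, edgeR adjusted p = 0.000397). Mrpl17 (0.42, edgeR adjusted p = 0.00935), Mrpl12 (0.30, edgeR adjusted p = 0.0281) and Mrpl4 (0.24, named after its value was seen) were the others that rose. Leaving out single libraries gave 2 to 7 that rose, 7 without CTT replicate 1. The call of Mrpl12 was lost without CTT replicate 2 or 3 or anti-Ly6G replicate 1 or 3. Most neutrophil, monocyte and cell cycle markers also rose in the anti-Ly6G libraries, as given above, and their part in these lists was not tested.

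**Figure D5:**
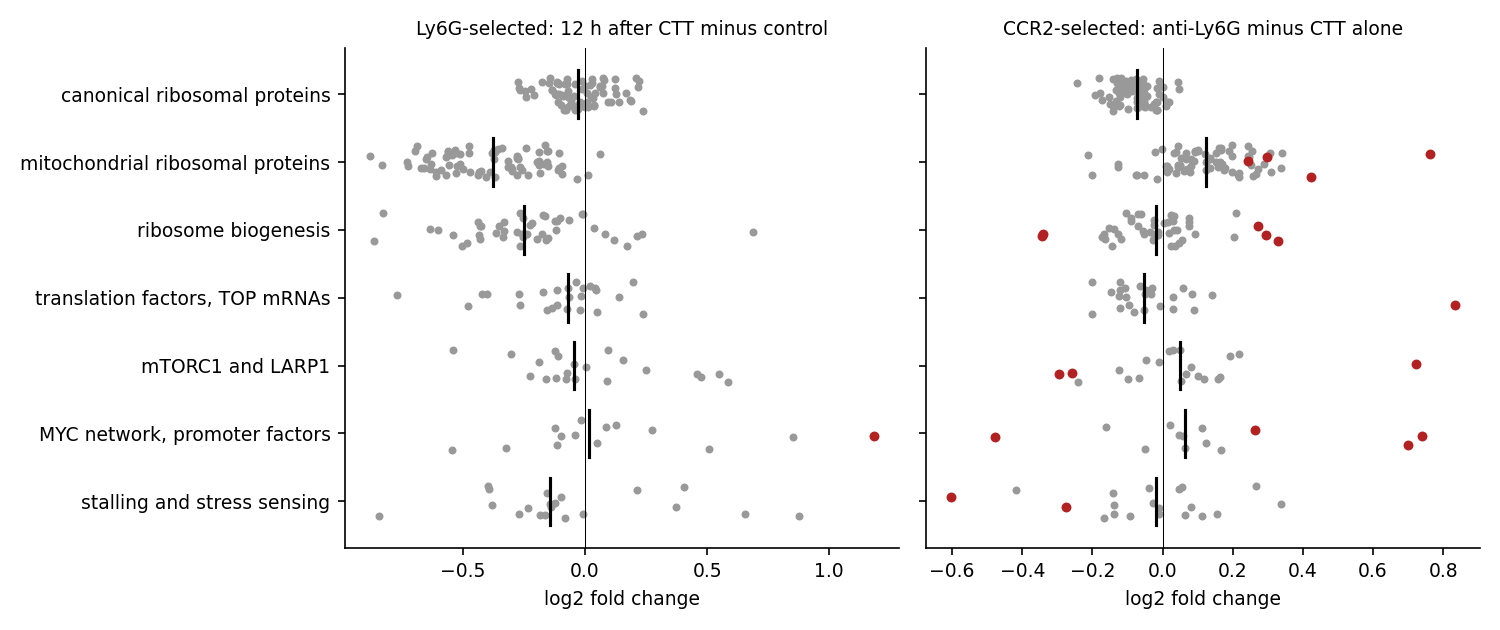
log2 fold change (horizontal axis) of the tested genes of each list (rows) in both comparisons, with vertical bars at list medians and red points for genes past the edgeR adjusted p threshold of 0.05. Vertical scatter within a row has no meaning. The canonical ribosomal proteins lie between −0.27 and 0.24 on the left and between −0.24 and 0.05 on the right, with medians of −0.03 and −0.07, beside −0.38 and 0.12 for mitochondrial ribosomal proteins.

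Regulators of ribosomal protein mRNA translation passed about as often as other genes in monocytes. Of the 21 genes around mTORC1 and LARP1, 0 passed in neutrophils (median −0.04). In monocytes 1 rose and 2 fell, where 10.2% of all genes rose and 5.12% fell. Eif4ebp1, which holds back cap-dependent translation until mTORC1 phosphorylates it, was at 33.1, 29.8 and 32.3 CPM after CTT alone and 54.5, 54.1 and 48.4 CPM with anti-Ly6G (0.72, SE 0.08, edgeR adjusted p = 0.000665). Sesn1 (−0.29, edgeR adjusted p = 0.0215) and Tsc1 (−0.26, edgeR adjusted p = 0.0411), which restrain mTORC1, fell. The call of Sesn1 was lost without CTT replicate 2 or 3 or anti-Ly6G replicate 1 or 2, and that of Tsc1 without any 1 library other than CTT replicate 1.

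The MYC network, which drives ribosome production, held the only gene of these lists that passed in neutrophils. It was listed with other transcription factors linked to ribosomal protein promoters. Of 14 tested in neutrophils 1 rose, where 0.567% of all genes rose. Of 13 tested in monocytes 3 rose and 1 fell, where 10.2% of all genes rose and 5.12% fell. Mxd1, an antagonist of MYC, was at 212, 242 and 176 CPM in control and 476, 479 and 474 CPM after CTT (1.18, SE 0.14, edgeR adjusted p = 0.0296). It rose in monocytes too, from 237, 256 and 245 CPM to 397, 474 and 362 CPM (0.74, SE 0.10, edgeR adjusted p = 0.00166). The neutrophil call was lost without any 1 library other than control replicate 1, with an adjusted p of at most 0.178. Myc was at 317, 502 and 604 CPM in control neutrophils and 914, 729 and 926 CPM after CTT, without overlap but not past the threshold (0.85, SE 0.24, edgeR adjusted p = 0.244). In monocytes Myc fell from 112, 138 and 166 CPM to 96.2, 91.8 and 111 CPM (−0.48, SE 0.13, edgeR adjusted p = 0.0421), a call lost without any 1 library other than CTT replicate 1. Mxi1 (0.70, edgeR adjusted p = 0.00147), another antagonist, and Max (0.26, edgeR adjusted p = 0.0285), the shared partner, rose. The call of Max was lost with upper quartile scaling and without CTT replicate 2 or 3 or anti-Ly6G replicate 2 or 3.

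Sensors of stalled ribosomes and of stress were the last list. Of 20 tested, 0 passed in neutrophils, and 1, Ddit3, rose without control replicate 1, where 257 of all 13295 genes rose. In monocytes 2 fell, where 5.12% of all tested genes fell and 10.2% rose. Ppp1r15a, which reverses the block on translation initiation, was at 346, 380 and 366 CPM after CTT alone and 253, 222 and 244 CPM with anti-Ly6G (−0.60, SE 0.07, edgeR adjusted p = 0.000968). Eif2ak4, the kinase activated by stalled ribosomes and amino acid shortage, fell by 0.28 on the log2 scale (edgeR adjusted p = 0.0322), a call lost without CTT replicate 3 or anti-Ly6G replicate 1 or 2. Without CTT replicate 1, 2 rose and 3 fell, where 1687 of all 13525 genes rose and 1168 fell. Of 11 tested genes of the p53 route, which includes targets like Rps27l, 0 passed in either comparison, while 1 rose and 2 fell in monocytes without CTT replicate 1. Cdkn1a, the cell cycle inhibitor induced by p53, was at 22.5, 37.4 and 33.4 CPM in control neutrophils and 87.4, 70.5 and 129 CPM after CTT (1.62, SE 0.28, edgeR adjusted p = 0.0799), and it rose without control replicate 1. In monocytes it was at 18.2, 11.8 and 15.6 CPM and then at 28.6, 18.7 and 19.1 CPM (0.54, SE 0.20, edgeR adjusted p = 0.102).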

How the data were processed

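Total RNA of magnetically selected spleen cells was sequenced in 12 libraries, 3 for each of 4 groups, as their titles state. The authors deposited 1 table per cell type with whole-number counts for each gene. Per the submitters' processing notes, HISAT2, HTSeq and the mm10 build were used. Nothing used here gives their versions, the gene annotation, the read length or the strand setting, so values of overlapping, antisense and near-identical genes are uncertain. FPKM values deposited beside the counts equal count over length and library total; they served for levels between genes and in alternatives.

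Counts were tested in R 4.3.3 with edgeR 4.0.16 (TMM, filterByExpr, quasi-likelihood F test, two-sided), each cell type alone, and the p-values of each table's tested genes were adjusted together (Benjamini-Hochberg, called at 0.05). Standard errors are the absolute log2 fold change over the square root of F. CPM values are TMM-scaled. The calling step was tested on simulated data. Alternatives were other scalings and filters, DESeq2 1.42.0, limma 3.58.1 (voom, and trend on log2 FPKM plus 1 or 0.1), a replicate block, leaving out each library, the FPKM share, and other lengths, of which the GENCODE length was chosen after seeing the data. Libraries of 1 group differed by more than counting error (chi-square per degree of freedom at least 13.1).

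Named were, in each comparison, the 8 members of smallest p, the 4 largest positive and 4 largest negative values at 10 CPM or more, all paralogs, Rpl5 and Rpl11, the 3 highest and 3 lowest by FPKM, the 3 genes of smallest p of each other list, and Myc; those of the other lists without values in the text are left out for length. Members and lists were chosen with earlier results of these data known. All 89 members matched RefSeq (GRCm38.p6) by Entrez ID. Protein sequences were not used here, and promoter windows were searched for letters only. A few genes are counted in the totals but not reported singly here, and the plots by gene leave them out.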

Additional observations from a re-analysis of the deposited data

How the results depend on the processing

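No member changed direction while called in any alternative. The median of the neutrophil members was −0.0998 with library totals, −0.0994 with FPKM plus 1 and −0.0995 with FPKM plus 0.1, and between −0.06 and 0.01 when single libraries were left out, with 0 members called throughout. In monocytes 0 members rose with upper quartile scaling, FPKM plus 1 or FPKM plus 0.1, and 2 fell with upper quartile scaling (Rpl21 and Rpl30). DESeq2 gave 3 that fell. In the other lists in neutrophils, where edgeR called Mxd1 alone, DESeq2 also called Taf1d, Sesn2, Myc, Ddit3, Ppp1r15a and Cdkn1a, and voom again Mxd1 alone. In monocytes, leaving out 1 library gave 0 to 1 members that rose and 0 to 8 that fell, with medians from −0.11 to −0.03; all 8 appeared without CTT replicate 1. Whether replicate numbers pair the libraries is not known. Deviations of same-numbered libraries correlated at 0.24, 0.00 and 0.22 in neutrophils and 0.13, −0.05 and 0.18 in monocytes. Those of unlike-numbered libraries ran from −0.25 to 0.20 in neutrophils and from −0.19 to 0.07 in monocytes. With so few libraries, centred within their group, these values cannot decide it. With the replicate number as a block, 3 monocyte members fell (Rpl30, Rps21 and Rps27) and 1 rose, and 0 neutrophil members changed; Mxd1 in neutrophils lost its call (edgeR adjusted p = 0.0654). With the pairing unknown, the block is no evidence of a weaker or stronger effect here. Over all genes, the block gave 4 that rose and 1 that fell in neutrophils and 1551 and 1043 in monocytes; DESeq2 gave 455 and 107, and 1566 and 1204. Leaving out libraries gave 0 to 257 that rose and 0 to 31 that fell in neutrophils, the upper ends without control replicate 1, and 706 to 1687 and 177 to 1168 in monocytes. Upper quartile scaling gave 1069 and 1030 in monocytes against 1354 and 681. The ratio of the highest to the lowest level was 18.6 in neutrophils and 19.9 in monocytes with GENCODE lengths. The cause of these shifts was not tested. Of 781 values of named genes in neutrophils, 6 lost and 10 gained a call; of 747 in monocytes, 50 lost and 30 gained one. Depth does not limit the canonical members, but Rpl39l, Rps23rg1, Rpl3l and Rpl32l had too few counts to show small changes.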
